A study of Pseudozyma hubeiensis with 12 samples.

Results

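The 4 genes described here, aco1, idh1, idp1 and fum1, encode enzymes of the tricarboxylic acid (TCA) cycle in BOT-O, a strain of the basidiomycete yeast Pseudozyma hubeiensis. They were taken by exact gene name from the deposited table, which lists 6689 loci, and each name matched 1 locus. All 4 had enough reads to be tested, as did 5805 loci in all. The best protein matches that the authors list for these loci are enzymes of Saccharomyces cerevisiae, so the roles given below come from that yeast.

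Cultures were grown in nitrogen-limited yeast nitrogen base that started with 80 g of carbon per g of nitrogen, supplied as the sugar and ammonium sulfate, and poly-A RNA was sequenced. The 4 groups were nitrogen starvation on xylose, nitrogen starvation on glucose, exponential growth on xylose and exponential growth on glucose, each with 3 biological replicates named A, B and C. All groups are the same strain on the same base medium and differ by label in sugar and growth phase. Exponential growth was always time point 1 and starvation always time point 2, so starvation and culture age cannot be told apart. Library totals ran over 15130232 to 32374467 counts.

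The TCA cycle burns acetyl groups in the mitochondrion. Citrate synthase joins acetyl-CoA to oxaloacetate, aconitase turns citrate into isocitrate, and isocitrate dehydrogenase oxidises isocitrate to 2-oxoglutarate, the carbon skeleton onto which ammonium is fixed as glutamate. Succinate dehydrogenase, fumarase and malate dehydrogenase return the carbon to oxaloacetate. In oleaginous yeasts short of nitrogen, isocitrate oxidation is known as a control point, because citrate that is not oxidised can leave the mitochondrion and be cleaved to acetyl-CoA for lipid synthesis.

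Aconitase (aco1, PHBOTO_002853), the enzyme that interconverts citrate and isocitrate, was lower in starvation on both sugars. The unit used below is CPM, for which TMM-normalized libraries are each set to 1000000 counts. On glucose, aco1 stood at 879, 1022 and 990 CPM in starved libraries A, B and C, against 1958, 1935 and 1925 CPM in exponential libraries. Starved xylose libraries held 882, 1015 and 911 CPM, against 1517, 1681 and 1556 CPM in exponential xylose. Every starved library was below every exponential library of the same sugar. The fall was 1.01 ± 0.09 (SE) on the log2 scale on glucose (log2 change -1.01, edgeR adjusted p = 2.32e-08) and 0.76 ± 0.09 on xylose (log2 change -0.76, edgeR adjusted p = 7.22e-07). A CPM is a share of the library, so less aco1 RNA per cell and more RNA of other genes cannot be told apart, here or for the genes below.

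Both isocitrate dehydrogenases fell on glucose, but they parted on xylose. The NAD-dependent enzyme is the one of the cycle itself, and idh1 (PHBOTO_000963) encodes its subunit 1, the regulatory subunit in S. cerevisiae. It stood at 224, 283 and 268 CPM in starved glucose, against 650, 620 and 601 CPM in exponential glucose. Starved xylose libraries held 492, 457 and 466 CPM, against 529, 592 and 531 CPM in exponential xylose. Starved and exponential libraries did not overlap on either sugar, but the gap on xylose was narrow. The log2 change was -1.27 ± 0.09 on glucose (edgeR adjusted p = 2.34e-09) and -0.22 ± 0.09 on xylose (edgeR adjusted p = 0.0345). With libraries scaled by total counts the xylose change was larger, at -0.44 (edgeR adjusted p = 1.43e-04). Under TMM the xylose call rested on single libraries. Leaving out exponential xylose B gave -0.17 (edgeR adjusted p = 0.145). Leaving out B or C of starved xylose gave -0.20 (edgeR adjusted p = 0.0892) and -0.22 (edgeR adjusted p = 0.0759).

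The NADP-dependent isocitrate dehydrogenase idp1 (PHBOTO_005911), annotated as mitochondrial, makes 2-oxoglutarate and NADPH outside the main flow of the cycle. It had the deepest falls of the 4 genes on both sugars. Starved glucose libraries A, B and C held 134, 124 and 167 CPM, against 576, 536 and 502 CPM in exponential glucose. Its level was 170, 167 and 185 CPM in starved xylose, against 542, 530 and 515 CPM in exponential xylose. All starved libraries, whatever the sugar, lay far below all exponential libraries. The change was -1.93 ± 0.10 on glucose, or 3.80-fold lower (edgeR adjusted p = 4.93e-11), and -1.60 ± 0.10 on xylose, or 3.04-fold lower (edgeR adjusted p = 4.42e-10).

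Fumarase (fum1, PHBOTO_000038), which hydrates fumarate to malate, was higher in starvation on both sugars. On glucose it stood at 696, 921 and 1136 CPM in starved libraries A, B and C, against 534, 556 and 504 CPM in exponential libraries. On xylose the values were 1547, 1167 and 1407 CPM in starvation, against 302, 328 and 342 CPM in exponential growth. The groups did not overlap on either sugar although starved libraries spread widely, with an SD of 192 CPM on xylose and 220 CPM on glucose. The rise was 0.79 ± 0.14 on glucose, or 1.73-fold (edgeR adjusted p = 9.55e-05), and 2.08 ± 0.15 on xylose, or 4.24-fold (edgeR adjusted p = 1.61e-09).

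**Figure D1:**
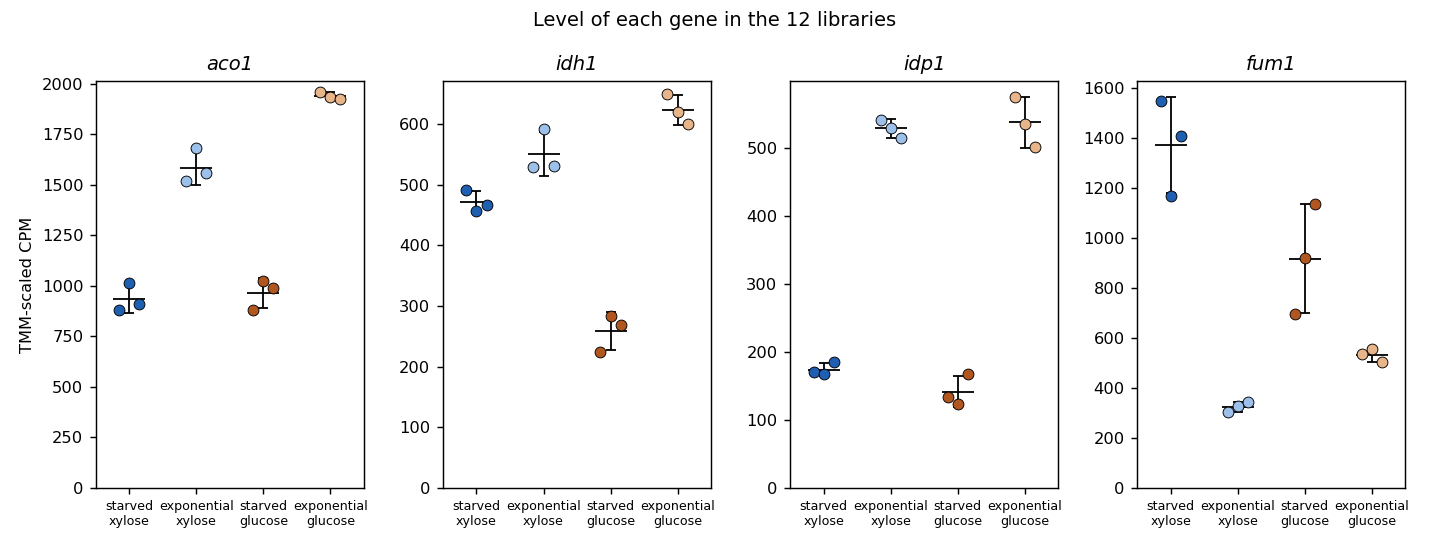
TMM-scaled CPM of aco1, idh1, idp1 and fum1 in each of the 12 libraries; points are libraries A, B and C, bars are the mean ± SD of 3, and each panel has its own axis from 0. Starved libraries lie below exponential ones for aco1, idh1 and idp1 and above them for fum1, and idh1 is lower in starved glucose (224 to 283 CPM) than in starved xylose (457 to 492 CPM).

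In starvation 3 of the 4 genes fell and 1 rose on each sugar. Calls were common in these comparisons. Of all genes tested, 81.2% were called between starved and exponential glucose (40.1% higher, 41.1% lower) and 81.3% between starved and exponential xylose (40.6% higher, 40.6% lower). Groups were free of overlap for 81.5% (glucose) and 85% (xylose) of genes tested, so 4 of 4 members called and 4 of 4 without overlap are near the background. By size of change, on glucose 7.61% of genes tested changed more negatively than idp1, 16.9% than idh1 and 22.3% than aco1, while 27.4% rose more than fum1. On xylose the shares were 10.1% for idp1, 42.2% for idh1, 26.8% for aco1 and 10.4% above fum1.

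The median change of the 4 genes was -1.14 on glucose and -0.49 on xylose, beside -0.02 and 0.00 over all genes tested. The authors' deposited table gives values close to these. Its log2 fold changes for starvation on glucose are -0.99 for aco1, -1.25 for idh1, -1.90 for idp1 and 0.81 for fum1. On xylose the authors' deposited table has -0.76, -0.22, -1.60 and 2.08 in the same order of genes. Over the 16 values of the 4 genes and 4 comparisons there, all 16 have the same sign as in edgeR, and all 16 lie on the same side of an adjusted p of 0.05.

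**Figure D2:**
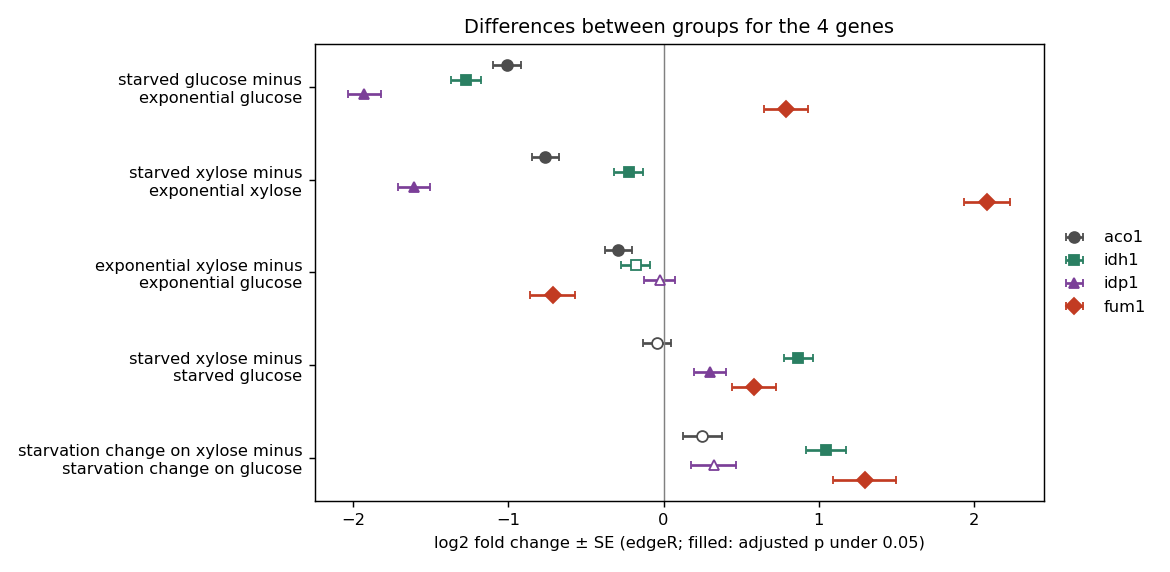
log2 fold change ± SE (edgeR) of the 4 genes in the 5 comparisons, with filled symbols at an adjusted p under 0.05. aco1, idh1 and idp1 lie left of 0 and fum1 right of 0 in both starvation comparisons, and idh1 and fum1 lie furthest right, at 1.05 and 1.30, in the difference between the starvation changes.

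The starvation change of idh1 and fum1 depended on the sugar. For idh1 the change on xylose exceeded that on glucose by 1.05 ± 0.13 on the log2 scale (interaction term, edgeR adjusted p = 1.86e-05). For fum1 the excess was 1.30 ± 0.20 (interaction term, edgeR adjusted p = 1.62e-04). The interaction was called for 38.2% of genes tested, with 21.7% higher and 16.5% lower, and 6.75% of genes lay above idh1 and 4.65% above fum1. The same term was 0.25 ± 0.12 for aco1 (edgeR adjusted p = 0.128) and 0.32 ± 0.14 for idp1 (edgeR adjusted p = 0.0881), neither of which was called. Without starved glucose C the idp1 term was 0.46 and called (edgeR adjusted p = 0.00511).

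In exponential growth, xylose cultures had less fum1 and aco1 than glucose cultures. For fum1, 302 to 342 CPM on xylose stood against 504 to 556 CPM on glucose, a log2 difference of -0.71 ± 0.14 (edgeR adjusted p = 0.00184). For aco1, 1517 to 1681 CPM on xylose stood against 1925 to 1958 CPM on glucose, a difference of -0.29 ± 0.09 (edgeR adjusted p = 0.0276). The share of all genes called was 20.7%, with 9.94% higher and 10.8% lower on xylose, and 4.03% of genes tested lay below fum1. The idh1 libraries did not overlap either (529 to 592 CPM on xylose, 601 to 650 CPM on glucose), as held for 53.2% of genes tested, but its difference of -0.18 ± 0.09 was not called (edgeR adjusted p = 0.190). The idp1 difference was -0.02 ± 0.10 (edgeR adjusted p = 0.899), and its libraries overlapped. The aco1 call was lost when xylose A or C was left out (edgeR adjusted p = 0.111 and 0.102), and when glucose A, B or C was left out (edgeR adjusted p = 0.0866, 0.0817 and 0.0743).

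In starvation, xylose cultures had more idh1 and fum1 than glucose cultures. The idh1 level was 457 to 492 CPM on xylose against 224 to 283 CPM on glucose, a log2 difference of 0.87 ± 0.09 (edgeR adjusted p = 3.46e-06). The fum1 level was 1167 to 1547 CPM on xylose against 696 to 1136 CPM on glucose, a difference of 0.58 ± 0.14 (edgeR adjusted p = 0.00436). Of all genes tested, 42.1% were called here (23% higher and 19.2% lower on xylose), and 44.4% had no overlap. The idp1 libraries touched, at 167 to 185 CPM on xylose and 124 to 167 CPM on glucose, and the difference of 0.30 ± 0.10 was called (edgeR adjusted p = 0.0279). That idp1 call ended when xylose A or C was left out (edgeR adjusted p = 0.0720 and 0.0962), and when glucose A or B was left out (edgeR adjusted p = 0.0798 and 0.149). It ended too with RLE scaling (adjusted p = 0.0501), with total counts (adjusted p = 0.138) and with only both starved groups in the fit (adjusted p = 0.0966). The aco1 levels of 882 to 1015 CPM on xylose and 879 to 1022 CPM on glucose differed by -0.04 ± 0.09 (edgeR adjusted p = 0.732).

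By group mean, for aco1, starved xylose (936 ± 70.0 CPM, SD, n = 3) and starved glucose (964 ± 75.2) were not separated, and exponential xylose (1585 ± 85.5) and exponential glucose (1939 ± 17.3) lay above them. For idh1, starved xylose (472 ± 17.9 CPM) lay close under exponential xylose (551 ± 35.7) and well above starved glucose (258 ± 31.0), and exponential xylose was not separated by the test from exponential glucose (624 ± 24.7). For idp1, starved xylose (174 ± 9.22 CPM) and starved glucose (142 ± 22.9) formed the low end, and exponential xylose (529 ± 13.4) and exponential glucose (538 ± 37.0) were not separated. For fum1 the order from the top was starved xylose (1374 ± 192 CPM), starved glucose (918 ± 220), exponential glucose (531 ± 26.1) and exponential xylose (324 ± 20.4), and each step was called.

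Ratios of counts within a library compare the members with each other and need no library scaling. Transcript lengths were not used, so only changes of a ratio between groups are read. The idp1 counts were 0.553 ± 0.102 of the idh1 counts in starved glucose and 0.370 ± 0.0251 in starved xylose, against 0.863 ± 0.0253 in exponential glucose and 0.964 ± 0.0649 in exponential xylose (SD, n = 3). No starved library reached an exponential one, with a highest starved ratio of 0.624 and a lowest exponential ratio of 0.836. Averaged over the sugars, the log2 ratio of idp1 to idh1 changed by -1.02 in starvation (two-sided exact permutation within sugars, p = 0.005, adjusted p = 0.01 over 12 tests).

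The fum1 counts were 0.947 ± 0.182 of the aco1 counts in starved glucose and 1.48 ± 0.307 in starved xylose, against 0.274 ± 0.0128 in exponential glucose and 0.205 ± 0.0132 in exponential xylose. That log2 ratio rose by 2.31 in starvation (exact permutation, adjusted p = 0.01). Of the 6 pairs of members, 5 changed their ratio in starvation, each at the smallest p that the 400 labelings allow (0.005). How often pairs of other genes change their ratio in starvation was not tested, so this count has no background. The 6 pairs share members, so their results are not independent. The pair not called was idh1 over aco1, which averaged 0.14 (exact permutation, adjusted p = 0.376) from values of -0.27 on glucose and 0.54 on xylose. These opposite changes cancel in the average, so that test does not show an unchanged ratio. On glucose the ratio was 0.2545 to 0.2772 in starvation against 0.3121 to 0.3318 in exponential growth. On xylose it was 0.4505 to 0.5574 against 0.3414 to 0.3522. The largest averaged change was that of fum1 over idp1, at 3.19.

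Between the sugars, 3 of the 6 ratios were called in tests that averaged the difference over both phases. This count, too, has no background from pairs of other genes. The log2 ratio of idh1 to aco1 was higher on xylose by 0.51 (exact permutation, adjusted p = 0.01), with 0.11 in exponential growth and 0.92 in starvation. The ratio of idp1 to aco1 was higher by 0.31 (exact permutation, adjusted p = 0.015), and that of fum1 to idh1 changed by -0.40 (exact permutation, adjusted p = 0.015). The other 3 had opposite signs in the phases and adjusted p values of 0.327 to 0.585 by exact permutation. Opposite differences cancel in the average, so these tests cannot show whether the sugars differed within a phase. For idp1 to idh1 the sugars did not overlap in exponential growth (log2 difference 0.16) or in starvation (-0.57). The same held for fum1 to aco1 (-0.42 and 0.64). For fum1 to idp1 (-0.69 and 0.29) they overlapped in starvation only.

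**Figure D3:**
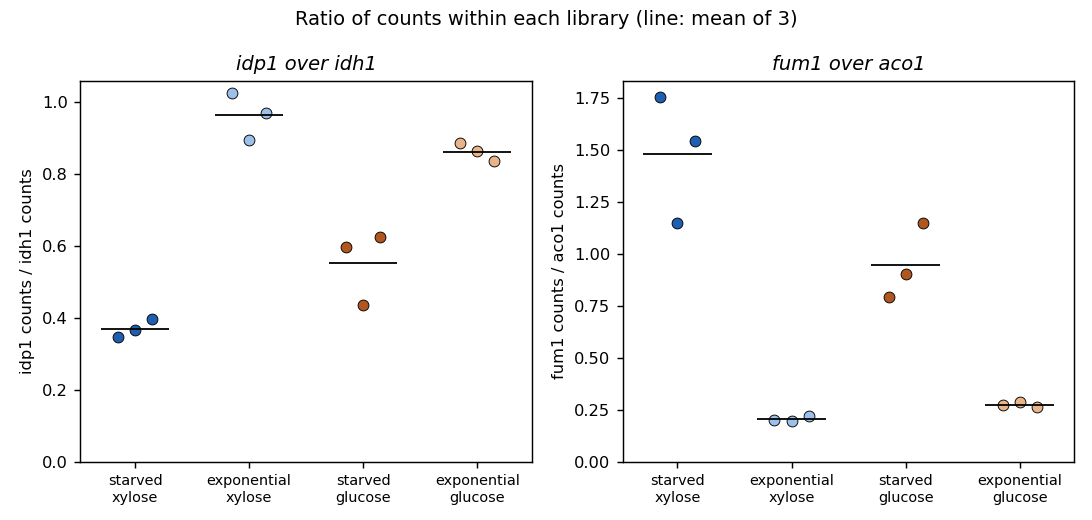
Ratio of idp1 to idh1 counts and of fum1 to aco1 counts in each library; points are libraries, lines are means of 3. The idp1 to idh1 ratio is at most 0.624 in starved libraries and at least 0.836 in exponential ones, and the fum1 to aco1 ratio is at least 0.792 in starved libraries and at most 0.287 in exponential ones.

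The second subunit of the NAD enzyme followed idh1. The locus idh2 (PHBOTO_000964), which encodes the catalytic subunit in S. cerevisiae, carries the locus number next to idh1. It averaged 386 ± 42.9 CPM in starved glucose against 783 ± 15.5 CPM in exponential glucose, a log2 change of -1.02 ± 0.09 (edgeR adjusted p = 4.17e-08). On xylose it averaged 638 ± 57.6 CPM in starvation against 630 ± 22.3 CPM in exponential growth, a change of 0.02 ± 0.09 (edgeR adjusted p = 0.859). With libraries scaled by total counts that change was -0.20 (edgeR adjusted p = 0.0369). Its interaction of 1.04 ± 0.13 (edgeR adjusted p = 2.30e-05) stood beside 1.05 ± 0.13 for idh1. The library kit was stranded, but the sources used here do not say whether counting used strand or what was done with multi-mapping reads, so reads shared by these related loci cannot be told apart.

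Across the rest of the cycle, the genes cit1, kgd1, kgd2, lsc1 and lsc2 fell in starvation on both sugars, and the succinate dehydrogenase subunits rose. A search by name and product found 14 other loci for the 8 steps. On glucose 5 of the 14 rose and 7 fell (median change -0.35), and on xylose 5 rose and 5 fell (median change -0.06). The background for those counts is the 81.2% and 81.3% called above.

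Citrate synthase cit1, which feeds the cycle, changed by -0.63 ± 0.08 on glucose (edgeR adjusted p = 1.99e-06) and -0.55 ± 0.08 on xylose (edgeR adjusted p = 9.49e-06). The 2-oxoglutarate dehydrogenase kgd1 changed by -0.74 ± 0.09 (edgeR adjusted p = 6.52e-07) and -0.34 ± 0.09 (edgeR adjusted p = 0.00180). The succinyl-CoA ligase subunit lsc2 changed by -0.48 ± 0.09 (edgeR adjusted p = 1.15e-04) and -0.36 ± 0.09 (edgeR adjusted p = 0.00141). The partner subunits of kgd1 and lsc2, kgd2 and lsc1, fell too. On glucose kgd2 changed by -0.74 ± 0.12 (edgeR adjusted p = 2.85e-05) and lsc1 by -0.48 ± 0.10 (edgeR adjusted p = 3.11e-04). On xylose they changed by -0.34 ± 0.12 (edgeR adjusted p = 0.0153) and -0.27 ± 0.10 (edgeR adjusted p = 0.0211). Both xylose calls ended without exponential xylose B (edgeR adjusted p = 0.0595 and 0.137). Other loci of these steps were not called lower on both sugars. The lipoamide dehydrogenase lpd1, a subunit shared with pyruvate dehydrogenase, was at -0.22 ± 0.13 on glucose (edgeR adjusted p = 0.120) and rose by 0.44 ± 0.13 on xylose (edgeR adjusted p = 0.00474). The glucose value of lpd1 was a called fall with total counts (-0.32, edgeR adjusted p = 0.0176) and without starved glucose C (-0.37, edgeR adjusted p = 0.00930). With total counts the xylose value of lpd1 was 0.23 (edgeR adjusted p = 0.0799). The putative copy lsc2_2 rose by 0.79 ± 0.20 on glucose (edgeR adjusted p = 0.00209) and was at 0.35 ± 0.20 on xylose (edgeR adjusted p = 0.121). Its group means were only 4.28 to 7.36 CPM, beside 576 to 807 CPM for lsc2.

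All 3 succinate dehydrogenase subunits found, which form the enzyme just before fumarase, rose on both sugars. The iron-sulfur subunit sdh2 averaged 778 ± 136 CPM in starved glucose against 456 ± 6.16 CPM in exponential glucose, a rise of 0.77 ± 0.10 (edgeR adjusted p = 4.04e-06). On xylose it averaged 1069 ± 24.9 CPM in starvation against 345 ± 13.7 CPM in exponential growth, a rise of 1.63 ± 0.11 (edgeR adjusted p = 5.12e-10). The membrane anchor sdh3 rose by 0.66 ± 0.11 on glucose (edgeR adjusted p = 3.48e-05) and 1.38 ± 0.11 on xylose (edgeR adjusted p = 6.42e-09). The flavoprotein subunit sdh1 rose by 0.28 ± 0.11 (edgeR adjusted p = 0.0271) and 1.14 ± 0.11 (edgeR adjusted p = 6.02e-08).

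The sdh1 call on glucose was the least firm of these. It ended when starved glucose B or C was left out (edgeR adjusted p = 0.0684 and 0.136), and when exponential glucose B or C was left out (edgeR adjusted p = 0.0585 and 0.0929). It ended too with total counts (0.18, edgeR adjusted p = 0.103) and with only the glucose groups in the fit (edgeR adjusted p = 0.0577). Interactions of the subunits were 0.87 ± 0.15 for sdh1, 0.86 ± 0.15 for sdh2 and 0.73 ± 0.15 for sdh3 (edgeR adjusted p = 4.20e-04, 3.31e-04 and 0.00172 in that order), beside 1.30 ± 0.20 for fum1.

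Malate dehydrogenase, the step after fumarase, has 2 loci that moved apart on glucose. There mdh1 changed by -0.50 ± 0.09 (edgeR adjusted p = 1.24e-04) and the putative copy mdh1_2 by 0.45 ± 0.09 (edgeR adjusted p = 3.33e-04). On xylose mdh1 changed by -0.14 ± 0.09 (edgeR adjusted p = 0.188), and with total counts by -0.35 (edgeR adjusted p = 0.00204). The copy mdh1_2 rose by 0.32 ± 0.09 on xylose (edgeR adjusted p = 0.00487), and with total counts stood at 0.11 (edgeR adjusted p = 0.285). The copies may share reads.

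**Figure D4:**
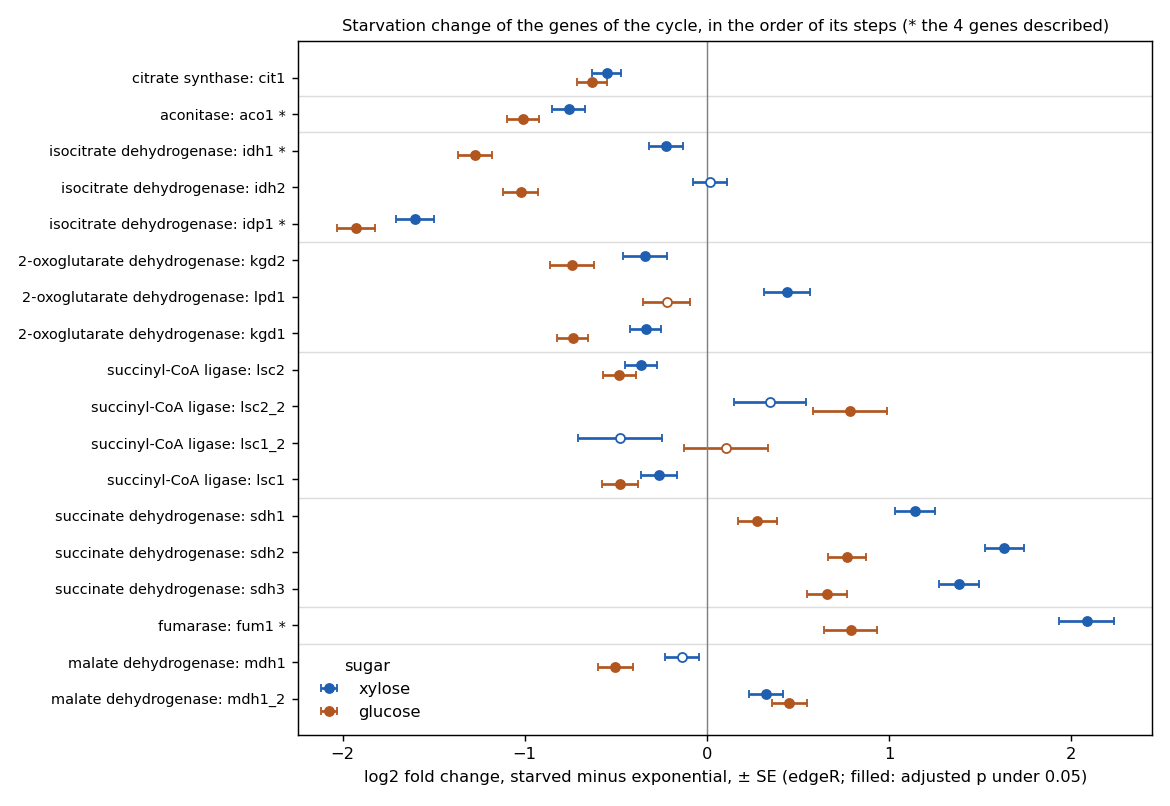
log2 fold change of starved against exponential libraries ± SE (edgeR) for the 18 genes of the cycle in the order of its steps, on xylose and on glucose, with filled symbols at an adjusted p under 0.05 and asterisks at aco1, idh1, idp1 and fum1. Values run lowest at idp1 (-1.60 on xylose, -1.93 on glucose) and highest on xylose at fum1 (2.08).

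No gene for citrate export or cleavage was called higher in starvation on either sugar. The list searched for citrate export and NADPH supply held 7 loci, among them AMP deaminase amd1 (below), which was not tested. Of the 6 tested, 0 rose and 3 fell on glucose (edgeR, median -0.46, and none of the other 3 had an unadjusted p under 0.05). Among those not called, ctp1_2 had group means of only 0.875 to 1.26 CPM. On xylose 1 rose (mae1) and 4 fell (median -1.20). Over all genes tested, 40.1% were called higher and 41.1% lower on glucose, and 40.6% each way on xylose. The citrate/oxoglutarate carrier yhm2 changed by -1.33 ± 0.10 on glucose (edgeR adjusted p = 3.49e-09) and -2.16 ± 0.10 on xylose (edgeR adjusted p = 1.14e-11). ATP-citrate lyase acl1, which cleaves citrate to acetyl-CoA, stood at 2171 ± 81.4 CPM in starved glucose against 2064 ± 132 CPM in exponential glucose (edgeR adjusted p = 0.436). On xylose it fell to 1114 ± 52.7 CPM in starvation, against 2311 ± 122 CPM in exponential growth, a change of -1.05 ± 0.09 (edgeR adjusted p = 8.70e-09). The malic enzyme mae1 rose by 3.44 ± 0.22 on xylose (edgeR adjusted p = 3.87e-10) and was at 0.08 ± 0.20 on glucose (edgeR adjusted p = 0.718).

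AMP deaminase amd1, an enzyme known from other oleaginous yeasts to lower the AMP that activates NAD isocitrate dehydrogenase, is listed at 0 counts in all 12 libraries. A count of 0 allows up to 0.198 CPM in the shallowest library, taken as 3 counts. The NADP glutamate dehydrogenase gdh1, which fixes ammonium onto 2-oxoglutarate, is listed at 0 in all 12 libraries too. Whether these loci are not transcribed or were not countable was not tested.

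On the entry side, 2 of 10 loci for pyruvate entry and anaplerosis rose and 5 fell on glucose, and 3 rose and 6 fell on xylose. These counts stand beside 40.1% higher and 41.1% lower of all genes tested on glucose, and 40.6% each way on xylose. The loci of pyruvate dehydrogenase itself went both ways, with the rises at putative copies of lower level. The pyruvate dehydrogenase subunits lat1 and pdb1, which make acetyl-CoA for the cycle, changed by -1.77 ± 0.10 and -1.32 ± 0.09 on glucose (edgeR adjusted p = 6.44e-11 and 5.25e-10) and by -1.64 ± 0.10 and -1.61 ± 0.09 on xylose (edgeR adjusted p = 1.63e-10 and 5.00e-11). The subunit pda1 was at -0.12 ± 0.08 on glucose (edgeR adjusted p = 0.153), or -0.22 with total counts (edgeR adjusted p = 0.0100), and changed by -0.40 ± 0.08 on xylose (edgeR adjusted p = 1.72e-04).

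Putative copies of these subunits were called higher, lat1_2 on xylose but not on glucose. The copy pdb1_2 rose by 1.63 ± 0.08 on glucose (edgeR adjusted p = 2.11e-11) and 1.20 ± 0.08 on xylose (edgeR adjusted p = 7.51e-10), and pda1_2 by 0.76 ± 0.20 (edgeR adjusted p = 0.00270) and 1.99 ± 0.20 (edgeR adjusted p = 1.38e-07). The copy lat1_2 rose by 2.56 ± 0.36 on xylose (edgeR adjusted p = 6.52e-06). On glucose lat1_2 was at 0.07 ± 0.36 (edgeR adjusted p = 0.859), and without starved glucose A at 0.50 (edgeR adjusted p = 0.0289). Copies may share reads with their namesakes.

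The glyoxylate bypass skips both isocitrate dehydrogenases. Of its 3 loci 2 rose on glucose and 3 on xylose, beside the 40.1% and 40.6% of all genes tested that were called higher. Its entry enzyme icl1 rose by 0.90 ± 0.11 (edgeR adjusted p = 1.56e-06) and 1.65 ± 0.11 (edgeR adjusted p = 1.22e-09). The other rise on glucose was the malate synthase mls1, at 0.33 ± 0.11 (edgeR adjusted p = 0.0143). That call ended with total counts (0.23, edgeR adjusted p = 0.0685), without starved glucose C (edgeR adjusted p = 0.0590) and without exponential glucose B (edgeR adjusted p = 0.0823).

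In the glutamate branch, which starts from 2-oxoglutarate, 3 of the 4 tested loci rose and 1 fell on glucose, and 2 rose and 1 fell on xylose, with the same shares over all genes as above. Of the rises on glucose, 1 was at a locus with group means of only 1.69 to 8.28 CPM. The NAD glutamate dehydrogenase gdh2, which in S. cerevisiae runs from glutamate back to 2-oxoglutarate, rose by 0.67 ± 0.12 on glucose (edgeR adjusted p = 5.25e-05) and 1.73 ± 0.12 on xylose (edgeR adjusted p = 8.72e-10). Its interaction was 1.06 ± 0.16 (edgeR adjusted p = 1.34e-04), beside 1.05 for idh1 and 1.30 for fum1. For glutamine synthetase gln1 the starvation values were 4771 ± 179 CPM on glucose and 5891 ± 249 CPM on xylose, against 2541 ± 26.0 CPM and 2620 ± 99.8 CPM in exponential growth on the same sugars.

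Genes whose pattern over the 12 libraries was nearest to each member were found by the root mean square difference of centred log2 CPM. Nearest to aco1 were the cytochrome oxidase assembly gene cox15 (0.0725), bol1 (0.0785) and ydr061w (0.0814), where the median gene was 0.601 away. Nearest to idh1 were the mitochondrial elongation factor tuf1 (0.109), the mitochondrial helicase hmi1 (0.119) and the ribosome biogenesis gene rlp24 (0.145), with idh2 next among named genes at 0.148 and a median of 0.639. Nearest to idp1 were the elongation factor tef4 (0.0986), ola1 (0.101) and the lysine synthesis gene lys2 (0.101), with a median of 0.936. For fum1 the splicing genes ecm2 (0.154) and lsm3 (0.166) came first, followed by the carnitine acetyltransferase cat2 (0.171), with a median of 0.911. The members themselves lay further apart, from 0.340 between aco1 and idh1 to 1.62 between idp1 and fum1.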

How the data were processed

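The deposited table gives 12 columns of raw read counts per locus, per the file headers, and matching normalized counts (a signal), which equal the counts divided by 1 factor per library made by the authors. It also holds, per the file headers, the authors' log2 fold changes with their errors, a test score (the fold change divided by its error) and p-values for 4 comparisons. Per the submitters' processing notes, reads went through bcl2fastq 2.20.0.422, CASAVA, Trim Galore 0.6.1, cutadapt 2.3, HISAT2 2.2.1 and DESeq2. For the read counter, its strand setting and the genome build, nothing is stated in those notes.

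All 12 libraries entered 1 model in edgeR 4.0.16 under R 4.3.3, in which every group had its own coefficient, with TMM scaling and filterByExpr (minimum count 10), which left 5805 of 6689 loci. The test was the quasi-likelihood F test. Its p-values got a Benjamini-Hochberg adjustment across the 5805 loci, and 0.05 was the limit for a call. SE values were derived from F (change size over root F). Ratios of members were tested by exact permutation, and scripts were tested on simulated data. Replicates differed by more than counting error (chi-square over its degrees of freedom was 11.3 to 95.5 between replicates), so none was counted as a copy. Raw counts of the members were 2047 to 65837 per library, and their number limits the precision little. The members were set by name. The genes named beside them were all measured genes of lists searched by name and product, those with the largest changes or highest levels and those of a member's step, plus the 3 nearest named genes by pattern. Members and lists were chosen with earlier results of these data known. Genes caught under a wrong list were moved or left out after the search, and 1 locus is not reported here. Alternatives were RLE and total count scaling, DESeq2 1.42.0, no filter, a replicate block, only the groups compared, and leaving out each library. No per-sample column was left out (0).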

Additional observations from a re-analysis of the deposited data

Results flagged for a closer look

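The starvation change differed between the sugars for idh1, by 1.05 on the log2 scale (xylose minus glucose, edgeR adjusted p = 1.86e-05), with changes of -0.22 on xylose and -1.27 on glucose. It differed too for fum1, by 1.30 (edgeR adjusted p = 1.62e-04), with changes of 2.08 on xylose and 0.79 on glucose. For fum1 the wide spread of the starved glucose libraries (696 to 1136 CPM) stands beside this value, and its part in the difference was not tested beyond leaving out single libraries, under which the difference was 1.13 to 1.48. For idh1 the difference under the same omissions was 0.95 to 1.11. Groups of 3 libraries are too small for a test of outlying samples.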

How the results depend on the processing

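The 20 log2 values of the 4 genes in 5 comparisons kept their sign and call with DESeq2, with no filter on low counts and with the replicate block. Only the idp1 difference between starved xylose and starved glucose changed its call elsewhere outside single-library omissions, at 0.27 with RLE scaling, 0.18 with total counts and 0.29 with only those groups in the fit. The idp1 difference in exponential growth, near 0, turned to 0.0045 with only the exponential groups in the fit, to 0.028 without exponential glucose A and to 0.0073 without starved xylose A. The interaction needs all 4 groups, so it was not run with only 2. Total counts moved the median of all genes by -0.21 for starvation on xylose, -0.12 between starved sugars and -0.12 for the interaction. With them idh1 in xylose starvation was at -0.44.

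Leaving out 1 library at a time gave -0.34 to -0.26 for aco1 between exponential sugars, -0.30 to -0.17 for idh1 in xylose starvation, 0.20 to 0.44 for idp1 between starved sugars, 0.23 to 0.46 for the idp1 interaction and -0.071 to 0.028 for idp1 between exponential sugars. Genes called between exponential sugars numbered 1203, 2458 with only those groups in the fit, and 791 to 1528 over the omissions, lowest without exponential glucose B. Between starved sugars 2446 were called, and 1613 with only those groups. All 144 pair ratio results under omissions, and all 12 with normalized counts, kept sign and call. For the other list genes, 3350 of 3560 values kept sign and call. Counts of the 14 other cycle genes ranged over 4 to 5 rises and 7 to 8 falls on glucose, and 3 to 5 rises and 3 to 8 falls on xylose.

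Whether libraries with the same letter and sugar came from the same culture was not tested. Same-letter correlations of deviations were taken within and across sugars. Of these 18 values, 3 exceeded 0.1 (median -0.024), and the best match had its own letter in 8 of 36 cases. Between exponential and starved xylose the values were 0.204 for A, 0.111 for B and -0.0222 for C. Between exponential and starved glucose they were -0.101, -0.0249 and -0.125 in the same order. With the replicate block 4691, 4696, 1189, 2364 and 2162 genes were called in the 5 comparisons, against 4714, 4717, 1203, 2446 and 2218 without it.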
